A study of Sus scrofa with 4 samples.

Results

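The enzymes described here build and sulfate the glycans of secreted and cell-surface proteins: the carbohydrate sulfotransferases (CHST, HS3ST, HS6ST, NDST, UST), the chondroitin and heparan polymerases (CHSY, CHPF, EXT, EXTL), the starters of glycosaminoglycan and mucin-type chains (XYLT, GALNT), the B3GALT, B4GALT and B4GALNT transferases, and the synthases of the sulfate donor (PAPSS). The members were taken by name from the gene name column of the deposited expression table, which gave 68 rows of 35248. The family was proposed around CHST8 once its difference between treated and control embryos had been seen, so that difference is given as a description, and counts of calls that include CHST8 support nothing about it or the family. The other members were taken by name and not by their values.

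The samples were porcine parthenogenetic embryos, made by electrically activating oocytes without sperm, at the 4-cell stage. The Bobcat339 group was treated with 50 µM Bobcat339, a compound that inhibits TET dioxygenases, the enzymes that oxidise methylated cytosine, and the control group received DMSO. Both groups had been held in cytochalasin B after activation and then kept in PZM-3 medium with bovine serum albumin for 48 h, and each group has 2 RNA-seq libraries. Parthenogenetic embryos carry no paternal genome, and neither the number of embryos in a library nor separate cultures are given in the sources used here, so a p-value here reflects no more than the variation among the libraries, which may be technical.

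Sulfated glycans are made in the Golgi. The PAPSS enzymes convert sulfate to the donor PAPS in the cytosol or nucleus, a transporter carries it into the Golgi lumen, and each sulfotransferase moves the sulfate to a particular sugar. Chondroitin and heparan sulfate grow on a short linker that xylosyltransferases start on a core protein, whereas GALNT enzymes start mucin-type chains with N-acetylgalactosamine. In oocytes and early embryos such glycans are found on the zona pellucida and on cell-surface proteoglycans, which bind growth factors.

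The libraries held 14681221 and 13568525 counts for Bobcat339 and 14390560 and 13852262 counts for the control. A count of 0 allows a level of up to 3 counts, or 0.204 to 0.221 CPM (counts scaled to library size), a limit that covers counting error only. The oocyte genes BMP15 (3289 FPKM as the mean of the 4 libraries) and WEE2 (2062 FPKM) and the embryonic factors KLF17 (604 FPKM) and TFAP2C (178 FPKM) were abundant. Oocyte markers (11 rows) and markers of embryonic genome activation (6 rows) both had a median log2 fold change of −0.03, and 0 of them passed with edgeR, 1 of the genome activation set lying lower at an unadjusted p under 0.05. FPKM is the level per length of gene, scaled to the reads of the library, and it is the scale on which different genes are compared below. In bulk libraries fewer expressing cells and less RNA per cell cannot be told apart.

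Few members carried most of the family's RNA. The 5 members with the highest mean, PAPSS1, CHST3, EXTL3, EXT2 and EXT1, held 66.7% and 63.3% of the summed FPKM of the family in the Bobcat339 libraries and 64.0% and 71.5% in the control libraries (EXT1 is named because of its level, outside the rule for named genes). The 68 members together summed to 373 and 360 FPKM with Bobcat339 and to 307 and 356 FPKM in the controls, so that control 1 lay below the other libraries. Rows of the same families without a name, described below, are not in these sums and shares. In level, 29 of the 68 members averaged at least 1 FPKM, 8 averaged at least 10 FPKM and 17 averaged less than 0.1 FPKM. Of the 68 members, 46 had enough counts to be tested between the groups, and a single one, HS6ST3, had 0 counts in all 4 libraries.

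**Figure D1:**
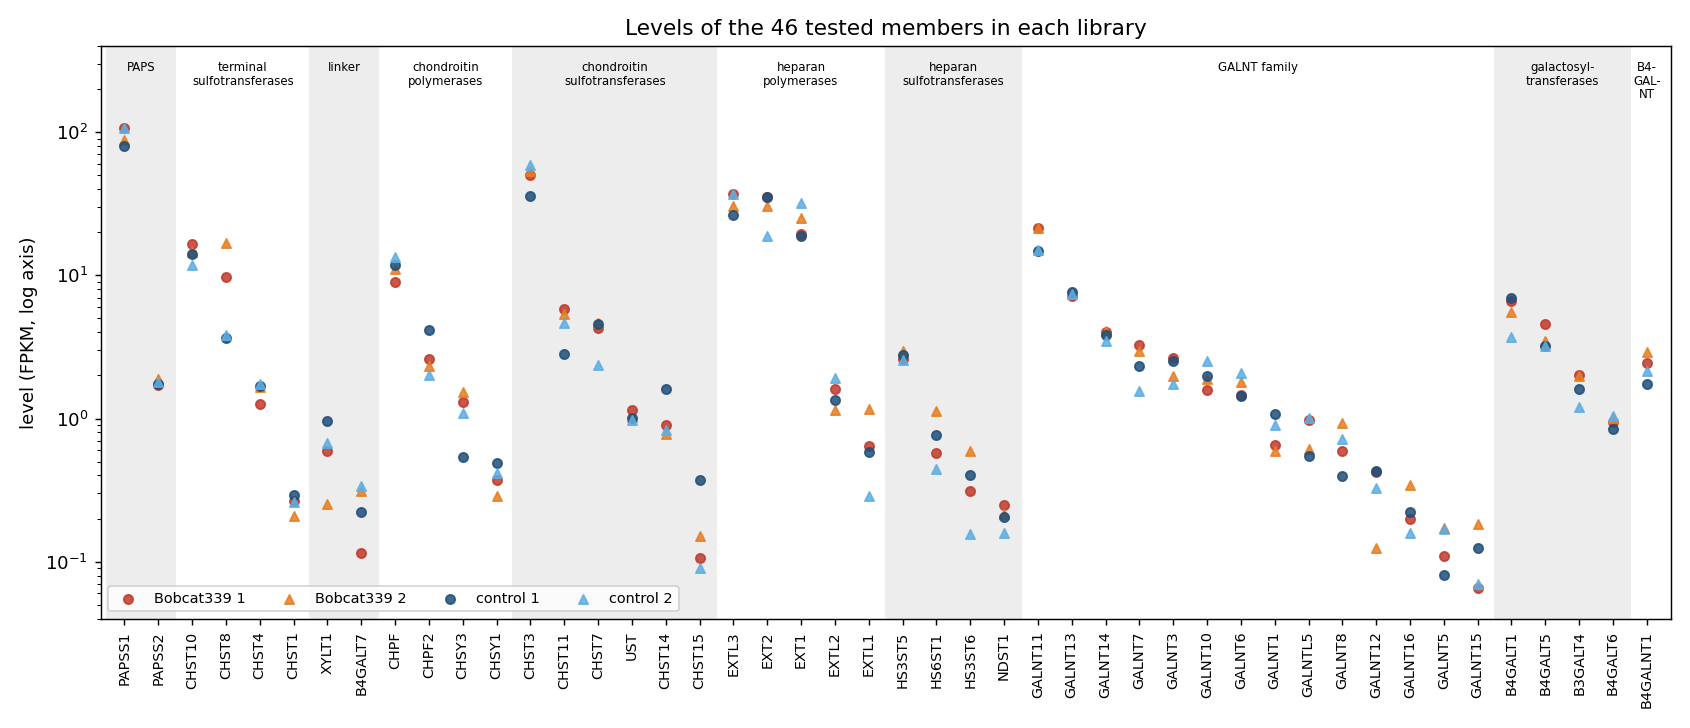
Level of each of the 46 tested members in each library, in FPKM on a log axis, grouped by role and ordered by mean level within a role; red and orange points are the Bobcat339 libraries, dark and light blue the control libraries. PAPSS1 stood highest, at 79.8 to 108 FPKM, and CHST8 was the member whose Bobcat339 points lay farthest above its control points.

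Of the RNAs for the PAPS synthases, that of PAPSS1 was far more abundant than that of PAPSS2. PAPSS1 (ENSSSCG00000031901, chromosome 8, bases 114252081 to 114369315, plus strand) had 107 and 88.4 FPKM with Bobcat339, against 79.8 and 108 FPKM in the control libraries. It was the most abundant member and stood above 96.9% of all tested genes by mean FPKM. PAPSS2, its paralog, had 1.72 and 1.90 FPKM with Bobcat339, against 1.75 and 1.80 FPKM in the controls. Both groups overlapped at both genes, and the log2 fold change of Bobcat339 over control was 0.04 for PAPSS1 (95% interval −0.51 to 0.58) and −0.00 for PAPSS2 (−0.77 to 0.76).

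Among the sulfotransferases that act on the ends of N- and O-glycans, CHST10 and CHST8 were the abundant ones. CHST10, which makes the HNK-1 epitope by sulfating glucuronic acid, had 16.4 and 14.5 FPKM with Bobcat339 and 14.0 and 11.7 FPKM in the controls. Its groups did not overlap in FPKM but did in TMM-normalised CPM, and its log2 fold change was 0.24 (95% interval −0.40 to 0.88). Of the 6 rows of this role 4 were tested. CHST4, a sulfotransferase of N-acetylglucosamine, averaged 1.59 FPKM over the 4 libraries, and both treated libraries lay below both controls in CPM. CHST1, which acts on galactose of keratan sulfate, averaged 0.257 FPKM and CHST2 averaged 0.147 FPKM. CHST9, the paralog that shares its reaction with CHST8, had 3 and 6 counts in the Bobcat339 libraries and 0 and 3 counts in the controls, too few to be tested. Of this pair of enzymes, CHST8 therefore held nearly all the reads in both groups.

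CHST8 (ENSSSCG00000035222) lies on the plus strand of chromosome 6 between bases 43371532 and 43493249, and no other row of the table overlaps it. The enzyme adds sulfate to N-acetylgalactosamine at the ends of N-glycans, a modification best known from the pituitary hormone lutropin. In CPM scaled between libraries by TMM, CHST8 had 21.0 and 36.1 with Bobcat339, against 8.17 and 8.30 in the control libraries. The controls nearly coincided, both Bobcat339 libraries lay above them, and Bobcat339 2 lay well above Bobcat339 1. The means were 28.6 ± 10.6 CPM with Bobcat339 and 8.24 ± 0.10 CPM in the control (SD, n = 2 each). The counts behind these values were 309 and 495 with Bobcat339, against 114 and 116 in the controls.

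The log2 fold change of CHST8 was 1.79, the value around which the family was chosen. Per length the gene averaged 13.2 FPKM with Bobcat339 and 3.74 FPKM in the controls, which placed it ninth among the 68 members over all libraries. In the control libraries alone CHST8 was not among the 10 most abundant members, whereas in the Bobcat339 libraries alone it was.

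Markers of the somatic cells that surround the oocyte were followed beside this difference. Of 18 cumulus and granulosa markers, 16 had a row and 10 were tested. By edgeR 0 of the 10 passed, and their median log2 fold change was −0.04. At an unadjusted p under 0.05 by edgeR, 1 was higher and 1 lower, against 1.36% and 2.64% of all tested genes. The rows summed to 142 and 171 CPM with Bobcat339 and to 133 and 143 CPM in the controls. Most of each sum came from VCAN and VIM. VCAN had 74.0 and 74.3 CPM with Bobcat339 and 57.75 and 82.0 CPM in the controls. VIM had 27.45 and 54.4 CPM with Bobcat339 and 44.0 and 33.3 CPM in the controls. AMH had 0 counts in all libraries and the FSH receptor FSHR had a single count, in control 2. GREM1, a BMP antagonist picked with its values known, had 21.4 and 18.6 CPM with Bobcat339, against 8.46 and 8.23 CPM in the controls (log2 fold change 1.26, adjusted p = 0.773 by edgeR). TNFAIP6, a protein of the cumulus matrix picked in the same way, lay on the other side, with 0.48 and 0.29 CPM with Bobcat339, against 1.72 and 1.57 CPM in the controls (log2 fold change −2.07, adjusted p = 0.999 by edgeR). The most abundant markers by FPKM, follistatin (FST) and vimentin (VIM), had log2 fold changes of 0.52 and 0.08, with both Bobcat339 libraries above both controls for FST and overlap for VIM. The 9 blood and immune markers, with SPI1 and CD68 the highest by FPKM, summed to 28.2 and 32.0 CPM with Bobcat339 and to 30.7 and 27.5 CPM in the controls. The part of such cells in the CHST8 difference was not tested.

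**Figure D2:**
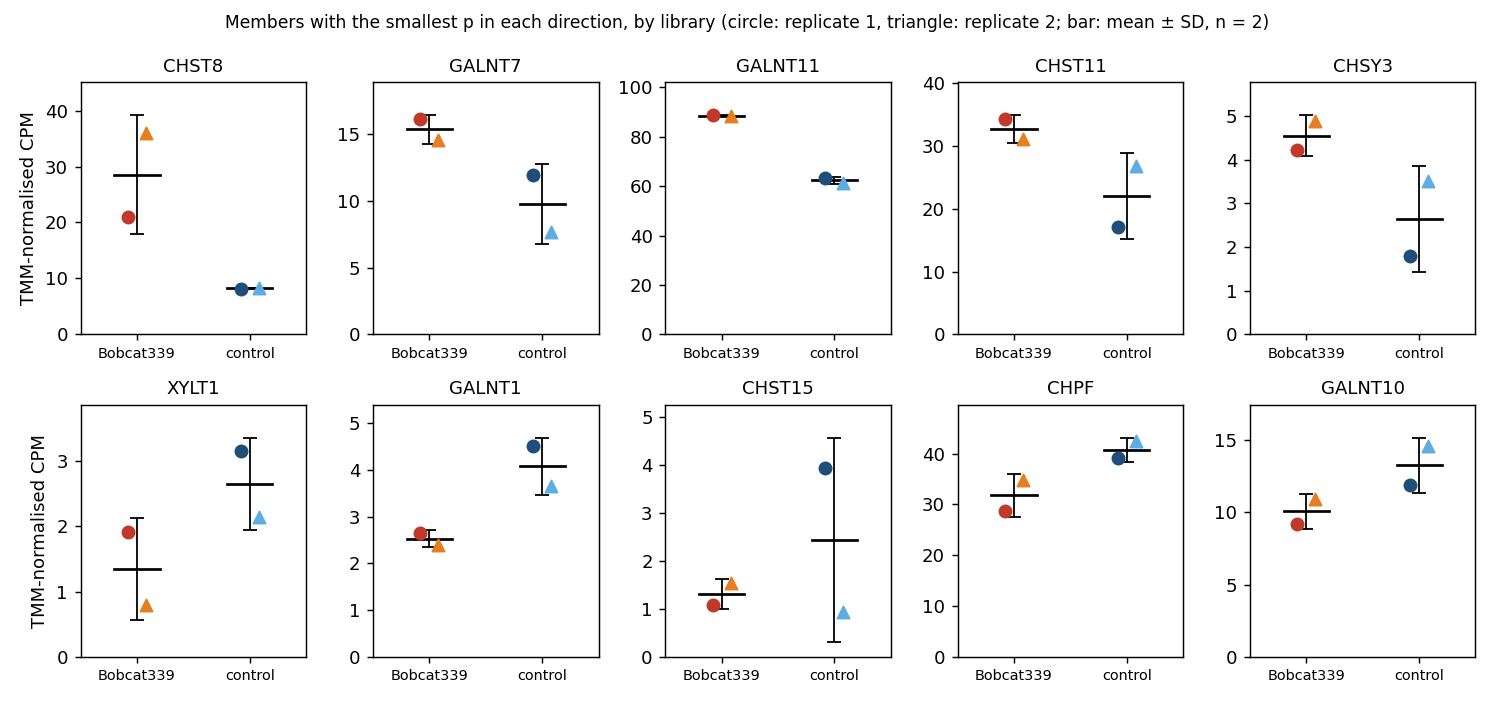
TMM-normalised CPM of the members with the smallest p in each direction, 5 higher in Bobcat339 (top) and 5 lower (bottom), with Bobcat339 left and control right; symbols are libraries and black bars the mean ± SD (n = 2). CHST8 and GALNT11 had control libraries close to each other, whereas the CHST15 controls, at 3.94 and 0.93 CPM, lay to either side of both Bobcat339 libraries.

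No member passed between Bobcat339 and control embryos. With edgeR's quasi-likelihood test and Benjamini-Hochberg adjustment over all 18481 tested genes, 0 of the 46 tested members had an adjusted p under 0.05, and of all genes tested 0.0% had. The adjusted p was 0.999 for every one of the 45 tested members other than CHST8. At an unadjusted p under 0.05 there was 1 member, CHST8 itself, which was higher, whereas 1.36% of all tested genes reached that level as higher, 2.64% as lower and 4.0% in all. On the same genes limma-voom called 0 members. DESeq2, run on all 30007 rows with any count, called 5 of those rows and 1 of 67 members, again CHST8. Each of these tools also had 1 member at an unadjusted p under 0.05. Of all genes, 646 of 18481 reached that level with limma-voom and 558 of 30007 with DESeq2. These counts concern the members that had enough reads and not all 68, and nothing is read from them about the family.

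The members' differences were spread to both sides of 0. Of the 46 tested members 29 had a log2 fold change above 0 and 17 below, with a median of 0.10, and of all tested genes 47.1% were above 0, with a median of −0.02. Both Bobcat339 libraries lay above both controls at 11 members (13.3% of all tested genes did so) and below both at 6 (16.0% of all). A log2 change of at least 1 in either direction was found at CHST8 and EXTL1, against 5.51% of all tested genes.

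**Figure D3:**
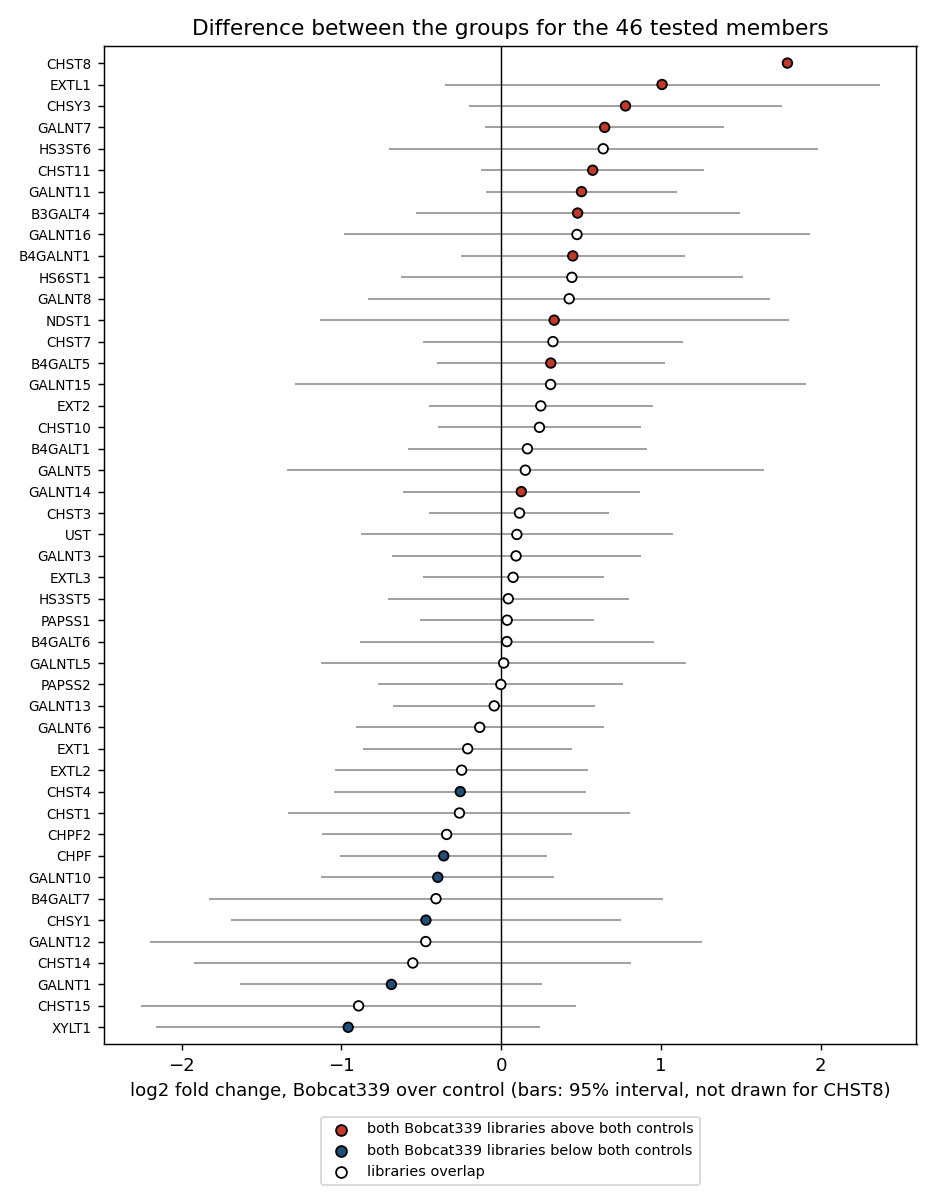
Log2 fold change of Bobcat339 over control for the 46 tested members with its 95% interval, filled red where both Bobcat339 libraries lay above both controls, blue where both lay below and white where the libraries overlapped. The intervals of all 45 other members include 0; CHST8, around which the family was chosen, is drawn at 1.79 without an interval.

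The chondroitin branch was read mainly from CHST3, which sulfates N-acetylgalactosamine in chondroitin. CHST3 (ENSSSCG00000023662, chromosome 14, bases 74850895 to 74891528, plus strand) had 50.5 and 53.6 FPKM with Bobcat339, against 36.1 and 58.8 FPKM in the control libraries. The controls enclosed the treated libraries, and the log2 fold change was 0.11 (95% interval −0.45 to 0.68). Its row overlaps that of PSAP on the opposite strand, and reads in the shared stretch cannot be told apart without strand. CHST11, the sulfotransferase that acts at another position of the same sugar, had 34.2 and 31.1 CPM with Bobcat339, against 17.1 and 26.8 CPM in the controls. Its treated libraries lay close together and above both controls, which themselves differed by more than 1.5-fold, and its log2 fold change was 0.57 (SE 0.33).

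The other chondroitin and dermatan sulfotransferases were less abundant. CHST7 averaged 3.98 FPKM and UST, which sulfates uronic acid, 1.03 FPKM. CHST14, the dermatan enzyme, averaged 1.03 FPKM, and CHST12 and CHST13 were not tested. CHST15, which adds a further sulfate to already sulfated N-acetylgalactosamine, had 1.09 and 1.53 CPM with Bobcat339, against 3.94 and 0.93 CPM in the controls. Its log2 fold change was −0.89 with all libraries, 0.49 without control 1 and −1.56 at the lowest when another library was left out. Of the 8 rows of this role 6 were tested, 4 with values above 0 and 2 below.

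The chondroitin polymerases lay to both sides of 0. CHPF, the chondroitin polymerizing factor, had 28.7 and 34.8 CPM with Bobcat339, against 39.1 and 42.5 CPM in the controls. The groups did not overlap, and the log2 fold change was −0.36 (SE 0.31). CHSY3, a chondroitin synthase of much lower level, had 4.22 and 4.88 CPM with Bobcat339, against 1.79 and 3.51 CPM in the controls, with a log2 fold change of 0.78 (SE 0.46). CHPF2 overlapped between the groups at 19.1 and 17.0 CPM with Bobcat339 and 31.2 and 14.5 CPM in the controls. CHSY1 had −0.47 and its groups did not overlap. Within this class of 4, then, CHSY3 had a log2 fold change above 0 and the other 3 had values below 0, none past the test.

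The linker enzymes were scarce. XYLT1, which attaches the first xylose to the core protein, had 1.91 and 0.80 CPM with Bobcat339, against 3.15 and 2.15 CPM in the controls. Both treated libraries lay below both controls, on counts of 28 and 11 with Bobcat339 and 44 and 30 in the control, and the log2 fold change was −0.96 (SE 0.57). XYLT2 had 2 and 8 counts with Bobcat339 and 15 and 0 in the controls, and B3GALT6, which adds the second galactose of the linker, had 1 and 3 counts with Bobcat339 and 11 and 3 in the controls, so neither was tested. The row of B3GALT6 overlaps SDF4 on the opposite strand. B4GALT7, the first galactosyltransferase of the linker, had 8 and 20 counts with Bobcat339 and 15 and 22 counts in the controls, and its row overlaps TMED9. All 4 linker enzymes together made up 0.214% and 0.242% of the family's FPKM with Bobcat339 and 0.685% and 0.347% in the controls.

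The heparan polymerases and the PAPS synthases were the classes with the highest summed FPKM, and the polymerases lay above the synthases in control 1 and below them in the other 3 libraries. They held 25.2% and 24.6% of the family's FPKM with Bobcat339 and 26.8% and 25.4% in the controls. EXTL3, which starts the heparan chain on the linker (ENSSSCG00000009680, chromosome 14, bases 12437506 to 12563545, plus strand), had 37.2 and 30.4 FPKM with Bobcat339, against 26.3 and 37.1 FPKM in the controls. EXT2 had 35.1 and 30.6 FPKM with Bobcat339, against 35.2 and 19.0 FPKM in the controls. EXT1, its partner in the polymerase complex, had 19.6 and 25.1 FPKM with Bobcat339, against 18.9 and 32.1 FPKM in the controls. The complex partners thus went opposite ways between the controls: EXT2 was lower and EXT1 higher in control 2 than in control 1.

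With all libraries the log2 fold change was 0.25 for EXT2 (95% interval −0.45 to 0.95), −0.21 for EXT1 (−0.87 to 0.45) and 0.07 for EXTL3 (−0.49 to 0.64). Without control 1 the value for EXT2 was 0.80, and its range over the 4 fits with a library left out was −0.12 to 0.80. The row of EXTL3 overlaps INTS9 on the opposite strand. EXTL1, a transferase related to the heparan polymerases, had 1.29 and 2.33 CPM with Bobcat339, against 1.22 and 0.57 CPM in the controls. Bobcat339 1 nearly met control 1, and the log2 fold change was 1.01 with an interval of −0.35 to 2.37. EXTL2 had 131 and 86 counts with Bobcat339 and 106 and 146 counts in the controls, and its row overlaps SLC30A7 on the opposite strand.

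The named heparan sulfotransferases were low. HS3ST5, which sulfates glucosamine, was the highest of the 10 named rows, with 2.62 and 2.96 FPKM in the Bobcat339 libraries and 2.76 and 2.54 FPKM in the controls, and the libraries overlapped closely (log2 fold change 0.04). HS6ST1 followed with 0.571 and 1.13 FPKM with Bobcat339 and 0.770 and 0.445 FPKM in the controls. NDST1, of the enzymes that replace acetyl groups with sulfate at the start of heparan modification, had 15 and 12 counts with Bobcat339 and 12 and 9 counts in the controls. Of the 10 rows 4 were tested, and all 4 had log2 fold changes above 0, from 0.04 to 0.64, with intervals that include 0. Of all tested genes 47.1% were above 0. The values of HS3ST5 and HS6ST1 fell below 0 in at least 1 fit with a library left out. The 0.64 is that of HS3ST6, with 19 and 33 counts with Bobcat339 and 24 and 9 in the controls. Its row overlaps that of MSRB1 on the same strand.

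Enzymes of the same families also sit in rows whose name column is empty and which the naming rule therefore leaves out. Identifiers in the reference tables gave a family symbol to 11 such rows. HS2ST1, the enzyme that sulfates uronic acid in heparan, had 12.6 and 16.1 FPKM with Bobcat339, against 11.4 and 15.9 FPKM in the controls. NDST2 had 2.81 and 2.96 FPKM with Bobcat339, against 3.42 and 2.47 FPKM in the controls. The most abundant of these rows was B4GALT3, with 19.3 and 20.5 FPKM with Bobcat339 and 18.8 and 19.5 FPKM in the controls. HS2ST1 and NDST2 were thus above every named heparan sulfotransferase in mean FPKM, and at HS2ST1, NDST2 and B4GALT3 the libraries of the groups overlapped, with log2 fold changes of 0.05, −0.06 and 0.03.

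Of the 18 named GALNT rows 14 were tested. GALNT11 (ENSSSCG00000016430, chromosome 18, bases 5289917 to 5348059, minus strand) was the most abundant, with 88.6 and 88.2 CPM with Bobcat339, against 63.3 and 61.4 CPM in the control libraries. The libraries of each group lay close together and the groups did not overlap, at 88.4 ± 0.24 CPM with Bobcat339 and 62.4 ± 1.36 CPM in the control (SD, n = 2 each). The log2 fold change was 0.50 (95% interval −0.09 to 1.10) and stayed between 0.49 and 0.55 with any 1 library left out, but edgeR, which shares its estimate of the spread among genes, gave an adjusted p of 0.999.

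GALNT7, which prefers peptides that already carry a sugar, had 16.1 and 14.6 CPM with Bobcat339, against 11.9 and 7.66 CPM in the controls (log2 fold change 0.65, SE 0.35). GALNT13 differed little among the libraries, with 39.4 and 41.0 CPM with Bobcat339 and 43.1 and 39.8 CPM in the controls. GALNT1 had 2.66 and 2.40 CPM with Bobcat339, against 4.51 and 3.65 CPM in the controls (log2 fold change −0.69, SE 0.45). GALNT10 had 1.57 and 1.89 FPKM with Bobcat339, against 1.97 and 2.51 FPKM in the controls (log2 fold change −0.40, SE 0.35). GALNT14 had 9.54 and 9.69 CPM with Bobcat339, against 9.39 and 8.23 CPM in the controls (log2 fold change 0.13). Thus GALNT7, GALNT11 and GALNT14 lay higher and GALNT1 and GALNT10 lower in both treated libraries than in both controls. Of all tested genes 13.3% lay higher and 16.0% lower in this way. GALNT2, a widely expressed starter of mucin-type chains in other tissues, had 10 and 7 counts with Bobcat339 and 12 and 7 counts in the controls and was not tested, and its row overlaps URB2. Over the 14 tested rows 9 values lay above 0 and 5 below, with a median of 0.11.

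B4GALT1, the main galactosyltransferase of N-glycans, was the highest of the named galactosyltransferase rows in FPKM, below the unnamed rows of B4GALT3 and B4GALT4, and had 30.2 and 25.1 CPM with Bobcat339, against 32.7 and 16.8 CPM in the controls. B4GALT5, which makes lactosylceramide, had 17.6 and 13.3 CPM with Bobcat339, against 12.8 and 12.2 CPM in the controls. Its groups did not overlap by a narrow margin, and the log2 fold change was 0.31 (SE 0.34). Of the N-acetylgalactosaminyltransferases, B4GALNT1, a ganglioside synthase, had 17.0 and 20.2 CPM with Bobcat339, against 12.5 and 14.7 CPM in the controls (log2 fold change 0.45, SE 0.33). B4GALNT3 and B4GALNT4, which make the disaccharide that CHST8 sulfates, had at most 3 counts in any library. Both of these enzymes were thus near the limit of detection in both groups.

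The replicates of the control differed more than those of Bobcat339 across these genes, as they did across all genes. The control libraries differed by more than 1.5-fold at 16 of the 46 tested members (38.2% of all tested genes did so), and the Bobcat339 libraries at 8 (17.3% of all). Within the Bobcat339 pair the median absolute log2 difference of the members was 0.27, and within the control pair 0.42. Over all tested genes it was 0.25 for Bobcat339 and 0.46 for the control. Of the abundant members, CHST3 and EXT1 were over 1.5-fold higher in control 2 and EXT2 and B4GALT1 in control 1. CHST8 was one of the 8 members that differed by this much between the Bobcat339 libraries.

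**Figure D4:**
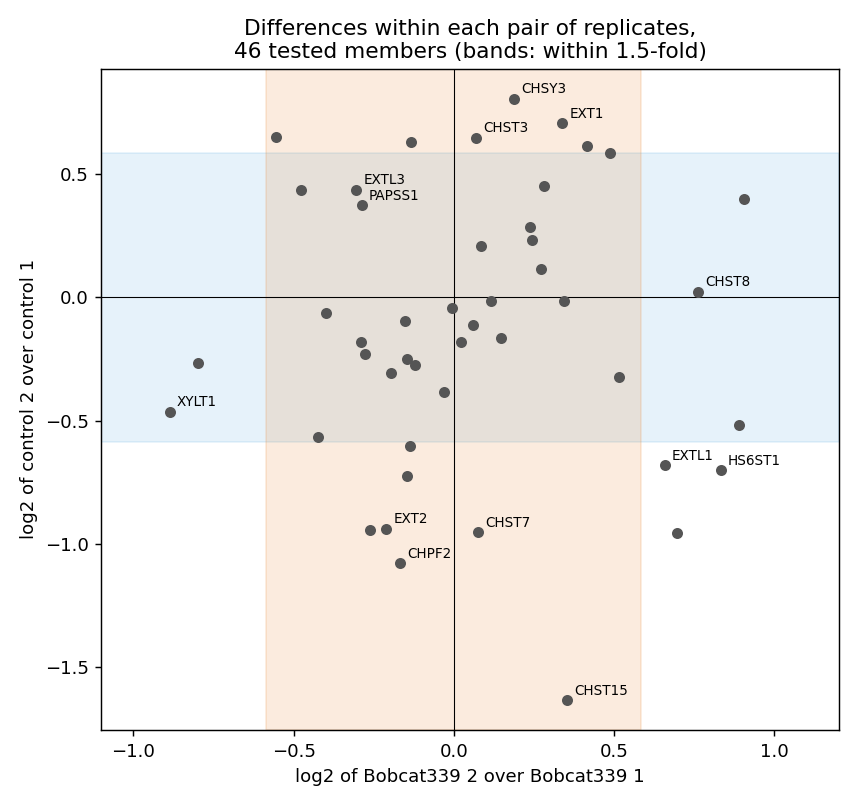
Log2 ratio of control 2 to control 1 (vertical axis) against the log2 ratio of Bobcat339 2 to Bobcat339 1 (horizontal axis) for the 46 tested members, with bands that mark differences within 1.5-fold. CHST8 lies to the right at a control ratio near 0, and CHST15 lies lowest, its controls differing by −1.63 on the log2 scale.

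Genes of the surrounding pathways were read from 7 lists, and of their 89 rows 70 were tested. By edgeR 0 of the 70 passed over all genes in either direction. At an unadjusted p under 0.05 by edgeR there was 1 of the 70, against 4.0% of all tested genes. Of the 70, 40 had a log2 fold change above 0, with a median of 0.08, and 47.1% of all tested genes did. Over all genes it tested limma-voom called 0 and DESeq2 called 5. The gene at the unadjusted level was LHB, the beta subunit of lutropin. It had 3.00 and 5.97 CPM with Bobcat339, against 2.51 and 1.36 CPM in the controls. Its log2 fold change was 1.21 (95% interval 0.13 to 2.28, edgeR adjusted p = 0.999). Bobcat339 1 lay close to control 1. The row of LHB overlaps on the opposite strand that of RUVBL2, which had 1717 and 1043 counts with Bobcat339 and 2515 and 1134 in the controls. Reads in the shared stretch cannot be told apart without strand. The common alpha subunit CGA had a single count, in control 1. The mannose receptor MRC1, which binds the sulfated sugar, had 1.91 and 2.04 CPM with Bobcat339 and 1.07 and 1.79 CPM in the controls. POMC, the other tested gene of the list that holds LHB and MRC1, went the other way (log2 fold change −0.66). It had 9 and 7 counts with Bobcat339, against 12 and 13 counts in the controls.

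The supply side was abundant for sugars and scarce for transport of the donor. UXS1, which makes the xylose donor, averaged 97.6 FPKM and UGP2, which makes UDP-glucose, 67.4 FPKM, with log2 fold changes of 0.02 and −0.11. Of the 12 tested genes of nucleotide sugar supply 8 lay above 0 and none passed. SLC35B2, a PAPS transporter of the Golgi, had 2 and 1 counts with Bobcat339 and 1 and 0 in the controls. SLC35B3, the other PAPS transporter of the same list, had 29 and 15 counts with Bobcat339 and 45 and 17 in the controls. It averaged 0.70 FPKM (log2 fold change −0.53), while the sulfate transporter SLC26A11 averaged 6.35 FPKM (log2 fold change −0.02). BPNT1, which breaks down the spent donor, had 5.64 and 5.79 FPKM with Bobcat339 and 4.21 and 5.96 FPKM in the controls (log2 fold change 0.15). None of the 6 tested genes of sulfate transport and recycling passed.

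Among other assembly enzymes, CSGALNACT2, which starts chondroitin chains on the linker, had 40.3 and 53.0 CPM with Bobcat339, against 28.4 and 35.0 CPM in the controls (log2 fold change 0.56, SE 0.31). GLCE, the heparan epimerase, had −0.05, and B3GAT3, which completes the linker, had too few counts to be tested. Of this list 6 were tested, and 0 of them passed. The later mucin enzymes ST6GALNAC3 (39.3 FPKM, log2 fold change −0.19) and GCNT3 (25.0 FPKM, 0.06) led a list with 0 of 10 passing. Of the genes of glycosaminoglycan breakdown 0 of 16 tested passed, among them the hyaluronidase HYAL2 (19.3 FPKM, 0.21). Of 17 tested core proteins 0 passed, and the most abundant were SDC2 (12.4 FPKM, 0.10) and GPC4 (12.2 FPKM, 0.33).

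Annotation terms are given by gene identity, as names are. The shares below therefore describe the members and lend the grouping no support. In the annotation deposited with the table, a Golgi term was attached to 51 of the 68 members (75.0%), against 4.29% of all rows with annotation. Of the 53 members placed in a pathway, 29 were in glycosaminoglycan synthesis and 16 in mucin-type O-glycan synthesis. Of all rows placed in a pathway, 0.842% and 0.430% were. The members lie on 18 chromosomes, with 1 more on an unplaced scaffold. GALNT11, GALNTL5 (chromosome 18, bases 5353817 to 5438227) and CHPF2 (bases 5985664 to 5994902) are near each other on the minus strand of chromosome 18, and their log2 fold changes of 0.50, 0.02 and −0.34 were not alike.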

How the data were processed

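Per the labels' protocols, TRIzol was used for total RNA and Smart-seq2, which does not mark strand, for the libraries. One table deposited by the authors holds raw counts and FPKM for each library. Per the submitters' processing notes the tools were HISAT2 2.0.5, DESeq2 1.16.1, HTSeq and Trimmomatic, with no roles given, and the build was Sscrofa10.2. The deposited coordinates follow Sscrofa11.1 instead: of 66 members that could be compared, 65 overlap the RefSeq gene of that name in Sscrofa11.1, so that build is meant wherever coordinates are given. The FPKM and counts together imply gene lengths at or below the deposited ones, a median of 0.772 of that length for members in Bobcat339 1, so FPKM levels depend on the authors' choice of length. No strand setting for counting is stated, and 21 of the 68 members overlap another row.

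Counts were tested with edgeR 4.0.16 in R 4.3.3 on all 4 libraries: filterByExpr with a minimum count of 10, TMM, glmQLFit and glmQLFTest, with Benjamini-Hochberg adjustment over all 18481 tested rows, which hold 99.7% of the counts. The script was tested on simulated data with large changes and less spread than in these libraries, so smaller changes were not covered. CPM are TMM-normalised, and ratios between replicates used a pseudocount of 0.5 CPM. Alternatives were DESeq2 1.42.0, limma-voom (limma 3.58.1), other scalings and filters, the replicate number as a block and each library left out. Samples were grouped by title, and 0 columns of per-sample values belong to no sample. No sequence is shown.

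The members, roles and lists were chosen with earlier results of these data known. The genes named were CHST8, the 2 members of each role with the highest FPKM, the 5 members with the smallest p in each direction, members with a log2 change of at least 1, and in each pathway list the 2 tested genes, and in each marker list the 2 genes, with the highest FPKM, plus pathway genes at an unadjusted p under 0.05. Further members and genes were named, with their values known, to account for each role. A gene that this rule picks is not reported here.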

Additional observations from a re-analysis of the deposited data

How the results depend on the processing

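The count of members passing stayed at 0 with DESeq2 size factors, total counts only, no filter, a filter of at least 1 CPM in 2 libraries and limma-voom, and so did the count of all genes. With DESeq2 in place of edgeR, on 30007 rows, 5 genes and 1 member passed. The replicate number as a block gave 44 genes (23 higher, 21 lower) and 1 member, against 0 without it. In both cases the member was CHST8, around which the family was chosen. The labels do not say that the numbers pair the samples, and across genes the deviations of same-numbered libraries correlated at 0.159, which with only 2 pairs does not establish pairing. Leaving out a library gave 0 to 586 genes and 0 to 2 members: 0 genes without either Bobcat339 library, 586 genes and 2 members (CHST8 and EXT2) without control 1, and 494 genes and 1 member (CHST8) without control 2. In each of these fits the spread of the lone library was taken from the other group. The median log2 fold change of the tested members lay between 0.0644 (without control 2) and 0.145 (without control 1) over those 4 fits. Of the 24 named members that were tested, 11 changed sign in at least 1 of the 4 fits, among them CHST3, EXT2, EXTL3 and PAPSS1, and 1, PAPSS2, under another setting; the cause was not tested. The 10 most abundant members kept 9 or 10 of their number under every alternative for level. At 2 libraries per group the intervals are wide, and members with few reads could not be tested.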
